A study of Mus musculus with 35 samples.

Results

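The 8 h between 16 and 24 h of doxycycline (Dox) were examined in mouse embryonic stem (ES) cells in which Dox switches on GATA6. The 3 libraries taken at 24 h were compared with the 3 taken at 16 h, which are 6 of the 35 libraries of the study, over the 13421 of 44853 genes whose mean reached 1 TPM in either group. TPM gives the share of a gene among the transcripts of its library after correction for gene length. A gene was called when its limma adjusted p was under 0.05 and its log2 change in TPM + 1 was above 1 in size. The called genes were then sorted by what they had done in the first 16 h, into continuing, newly moving and reversing.

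The cells were of the KH2 line, on a C57BL/6 x 129/Sv background, and carried a cassette with the Gata6 coding sequence under a Dox-inducible promoter. They were kept in serum and LIF on mitomycin C-treated fibroblast feeders, and Dox was given at 1 µg/mL for 16 or 24 h. The 0 h group was the same line before Dox. Later groups of the same line (48 to 168 h of Dox, 3 libraries each) and 2 libraries of XEN cells, an untreated wild-type extra-embryonic endoderm line (X10, CD1), served as references. In a separate set, cells given Dox for 48 h had received either a non-targeting siRNA (siCTL, 6 libraries) or siRNA to Oct4 (siOct4, 6 libraries). The siRNA cells were of 1 clone according to the methods, and for the induction libraries the labels do not say which clone gave each. Feeders were removed only by adsorption before lysis. Replicates were independent according to the methods of the study. In bulk RNA a change in the number of cells of a kind and a change in RNA per cell cannot be told apart.

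GATA6 is the zinc finger transcription factor that directs cells of the early embryo to primitive endoderm (PrE), the layer that later lines the yolk sac. PrE cells activate a chain of further transcription factors (GATA4, SOX17, SOX7, HNF4A), build a thick basement membrane of laminin and type IV collagen, and take up protein from their surroundings through an endocytic receptor complex of megalin, cubilin and amnionless. Epiblast and ES cells instead hold the pluripotency network of Oct4, Sox2, Nanog and Esrrb.

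Gata6 itself did not pass the test in these 8 h. It stood at 0.193, 0.223 and 0.375 TPM in the 3 libraries before Dox, at 129, 134 and 138 TPM at 16 h and at 143, 145 and 122 TPM at 24 h. The 16 and 24 h libraries overlapped, with a log2 difference of 0.03 ± 0.09 (SE; adjusted p = 0.939, limma). The value sums the cassette and the endogenous gene. Around this level, 35 genes were higher at 24 h (0.261% of the genes tested) and 18 were lower (0.134%). At adjusted p alone 257 genes were higher (1.91%) and 149 lower (1.11%), and the median change over all genes was 0.01. In all 35 rises and in 15 of the 18 falls the 16 and 24 h libraries did not overlap, against 27.1% of all genes. The calls were made on these same libraries, so this describes the called genes and does not test them. Among the same 13421 genes, the same thresholds called 296 higher (2.21%) and 92 lower (0.685%) from 0 to 16 h. From 24 to 48 h they called 419 higher (3.12%) and 368 lower (2.74%), and these steps are of other lengths. Genes under 1 TPM on average at both 16 and 24 h are outside these counts. Shares of all genes in the induction series refer to this set.

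A single library stood apart at 24 h and weighed on these counts. Placed between the mean profiles of 16 h (0%) and 48 h (100%), replicates 1 and 2 of the 24 h group lay at 30.9% and 31%, and replicate 3 at 21.5%. Replicate 3 was the lowest 24 h library in 34 of the 35 rises and the highest in 11 of the 18 falls. Without it, 67 genes were higher and 36 lower, among them 34 of the 35 and 15 of the 18. Without replicate 1 or replicate 2 of the 24 h group, 25 and 23 genes were higher and 11 and 10 lower, and without replicate 3 of the 16 h group 30 were lower. The fibroblast genes Thy1, Col3a1, Col1a2, Postn, Dcn, Lum and Prrx1 were also highest in replicate 3. This held at 0, 16 and 24 h. Thy1 stood at 4.55, 4.23 and 34.9 TPM at 16 h and 4.52, 3.26 and 25.4 TPM at 24 h. At 24 h Col1a1 (52.3, 37.2 and 38.2 TPM) and Twist1 (9.95, 8.01 and 7.28 TPM) were not highest in replicate 3. At 0 and 16 h both were. Of 22 fibroblast markers tested, 0 passed adjusted p (limma) and 0 had an unadjusted p under 0.05 between 16 and 24 h. The summed level of the 25 markers measured was 499, 457 and 729 TPM at 16 h and 658, 547 and 675 TPM at 24 h. Their part in the step was not tested. Of the trophectoderm markers, Cdx2, Elf5 and Gata3 were under 1 TPM in all 6 libraries, and Hand1 stood at 0.487, 0.324 and 0.832 TPM at 16 h and 0.912, 1.71 and 1.76 TPM at 24 h. Of 7 trophectoderm genes tested 5 differences were positive and 1 gene, Esx1, passed adjusted p upward, against 1.91% of all genes.

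**Figure D1:**
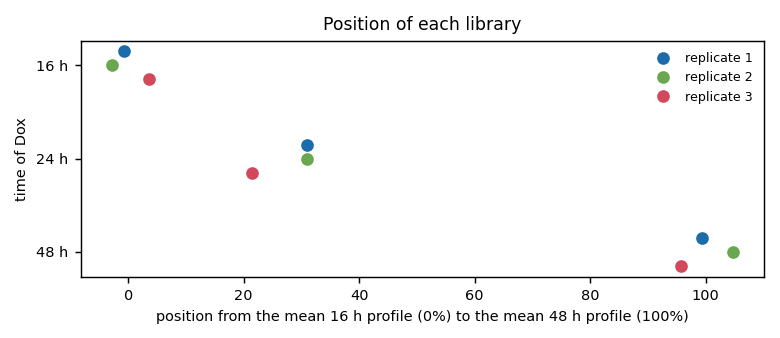
Each point is 1 library placed by its log2(TPM + 1) profile between the mean profiles of 16 h (0%) and 48 h (100%), with time of Dox on the vertical axis and replicates by color. Replicate 3 of the 24 h group lies at 21.5%, to the left of replicates 1 and 2 at 30.9% and 31%.

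Of the 35 rises, 19 continued a rise that was already called at 16 h and 16 were newly moving. Of the 18 falls, 4 continued, 11 were newly moving and 3 reversed an earlier rise. No gene that had fallen by 16 h was called higher in the step. Without replicate 3 of the 24 h group the numbers were 34 and 33 for rises, and 12, 21 and 3 for falls. The classes share the 16 h libraries with the step, so their counts are given without a test. They also depend on the fold threshold: 7 of the 16 newly moving rises (Bmper, Cachd1, Hs3st1, Klb, Myo5b, P4ha1 and P4ha2) had passed adjusted p, but not the fold minimum, at 16 h.

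**Figure D2:**
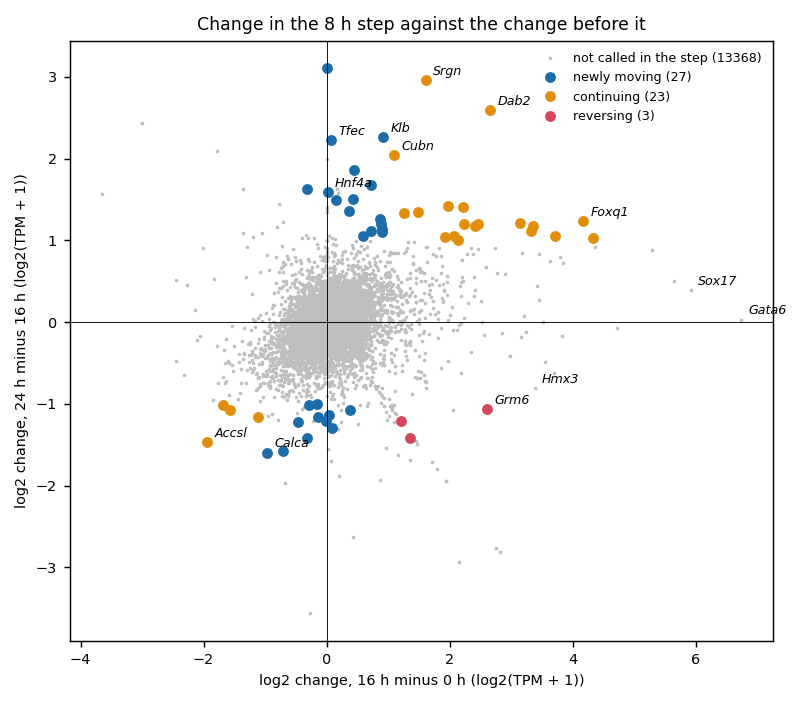
Each point is 1 of the 13421 genes, with the log2 change from 0 to 16 h on the horizontal axis and from 16 to 24 h on the vertical axis, both on the log2(TPM + 1) scale; colored points are the 27 newly moving, 23 continuing and 3 reversing genes. Gata6 lies far right at a step of 0.03, whereas Dab2 and Srgn lie high at 2.59 and 2.96. The axes share the 16 h libraries.

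Of 12 PrE transcription factors measured 9 were tested, and 4 were called higher (among them Hnf4a, Foxq1 and Sox7), against 0.261% of all genes. Hnf4a reached 1 TPM on average only at 24 h, so its place among the 9 depended on its rise. By adjusted p alone 6 were higher, against 1.91% of all genes, and the median change was 0.90 against 0.01 over all genes. Hnf4a (chromosome 2, 163506808 to 163572910), a nuclear receptor of visceral endoderm and liver, was near 0 before the step, at 0.0203, 0.0609 and 0.0304 TPM before Dox and 0.071, 0.0304 and 0.0507 TPM at 16 h. It reached 3.54, 2.42 and 1.03 TPM at 24 h, with a log2 difference of 1.59 ± 0.29 (SE; adjusted p = 0.00438, limma). Every 24 h library was above every 16 h library, and the mean at 24 h was 13.9% of the mean at 48 h.

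Sox7, an F-group SOX factor of endoderm, stood at 13.5, 13.8 and 13.8 TPM at 16 h and 39.6, 40.9 and 22 TPM at 24 h, with a log2 difference of 1.21 ± 0.20 (SE; adjusted p = 0.00187, limma). Foxq1, a forkhead factor, went from 18.3, 18 and 20.8 to 53.5, 55.8 and 32.5 TPM, with a log2 difference of 1.23 ± 0.14 (SE; adjusted p = 5.42e-05, limma). In both genes the groups did not overlap, and replicate 3 was the lowest 24 h library.

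Gata4, the partner of GATA6, rose by less than the fold minimum, from 62.1, 62.4 and 65.7 to 130.4, 135 and 92.2 TPM, with a log2 difference of 0.88 ± 0.12 (SE; adjusted p = 0.000428, limma). Foxa2, a forkhead factor of endoderm, also passed adjusted p only, at 6.48, 4.93 and 4.53 TPM and then 14.8, 14.3 and 5.62 TPM, with a log2 difference of 0.90 ± 0.24 (SE; adjusted p = 0.0477, limma) and replicate 3 inside the range of the 16 h libraries. Sox17, which pairs with Oct4 in endoderm, did not pass: it was at 68.4, 60.9 and 74.2 TPM at 16 h and 111, 105 and 60.6 TPM at 24 h, with a log2 difference of 0.39 ± 0.18 (SE; adjusted p = 0.314, limma). Without replicate 3 its change was 0.67 (limma adjusted p = 0.0161). Tfec, a basic helix-loop-helix factor outside the list, was near 0 at 16 h (0.0811, 0.182 and 0.112 TPM) and at 5.02, 5.62 and 2.66 TPM at 24 h, with a log2 difference of 2.23 ± 0.36 (SE; adjusted p = 0.00154, limma).

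Genes of the endocytic apparatus held some of the largest rises. Of 12 PrE receptors and signalling genes tested, 4 were called higher (Dab2, Cubn, Nostrin, Amn), against 0.261% of all genes. By adjusted p alone 7 were higher, against 1.91% of all genes, and the median change was 0.95. Dab2 (chromosome 15, 6299788 to 6440712), the adaptor that links the megalin and cubilin receptors to clathrin, was at 0.985, 1.24 and 1.17 TPM before Dox and 11.5, 13.6 and 12.3 TPM at 16 h. It was at 101, 108 and 46.7 TPM at 24 h, with a log2 difference of 2.59 ± 0.23 (SE; adjusted p = 5.41e-06, limma). This gene continued an earlier rise, and its mean at 24 h was still 12% of that at 48 h.

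Cubn (chromosome 2, 13276338 to 13491813), the receptor cubilin, went from 1.01, 1.19 and 1.67 TPM at 16 h to 11, 11.4 and 4.48 TPM at 24 h, with a log2 difference of 2.04 ± 0.27 (SE; adjusted p = 0.000366, limma). Its mean at 24 h was 3.0% of that at 48 h, the lowest share among the 35 rises. Amn, or amnionless, which carries cubilin to the cell surface, went from 16, 18.8 and 21.3 to 58.3, 62.7 and 36.3 TPM, with a log2 difference of 1.41 ± 0.23 (SE; adjusted p = 0.00188, limma). Nostrin, a membrane-bending protein of endocytosis, went from 1.98, 2.68 and 4.58 to 11.1, 10.3 and 7.57 TPM, with a log2 difference of 1.42 ± 0.17 (SE; adjusted p = 9.37e-05, limma). Each of these genes had groups that did not overlap.

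Lrp2, which encodes megalin, the other receptor of the complex, was at 10.8, 12.1 and 8.27 TPM at 16 h and 28.1, 33.1 and 10.1 TPM at 24 h. Its replicate 3 at 24 h lay inside the range of the 16 h libraries, and the change did not pass, with a log2 difference of 0.98 ± 0.31 (SE; adjusted p = 0.0989, limma). Without that library it was 1.48 (limma adjusted p = 0.000858). Pdgfra, a receptor tyrosine kinase that marks PrE, was at 79.7, 75.2 and 70.6 TPM and then 115, 117 and 89.9 TPM, with a log2 difference of 0.50 ± 0.15 (SE; adjusted p = 0.0805, limma). Podxl, a sialomucin of the apical surface, passed adjusted p alone with a log2 difference of 0.61 ± 0.09 (SE; adjusted p = 0.000872, limma), as did Dkk1, a secreted WNT antagonist, with a log2 difference of 0.92 ± 0.23 (SE; adjusted p = 0.0308, limma), and Pth1r, the receptor for parathyroid hormone-related protein, with a log2 difference of 0.84 ± 0.22 (SE; adjusted p = 0.0487, limma).

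**Figure D3:**
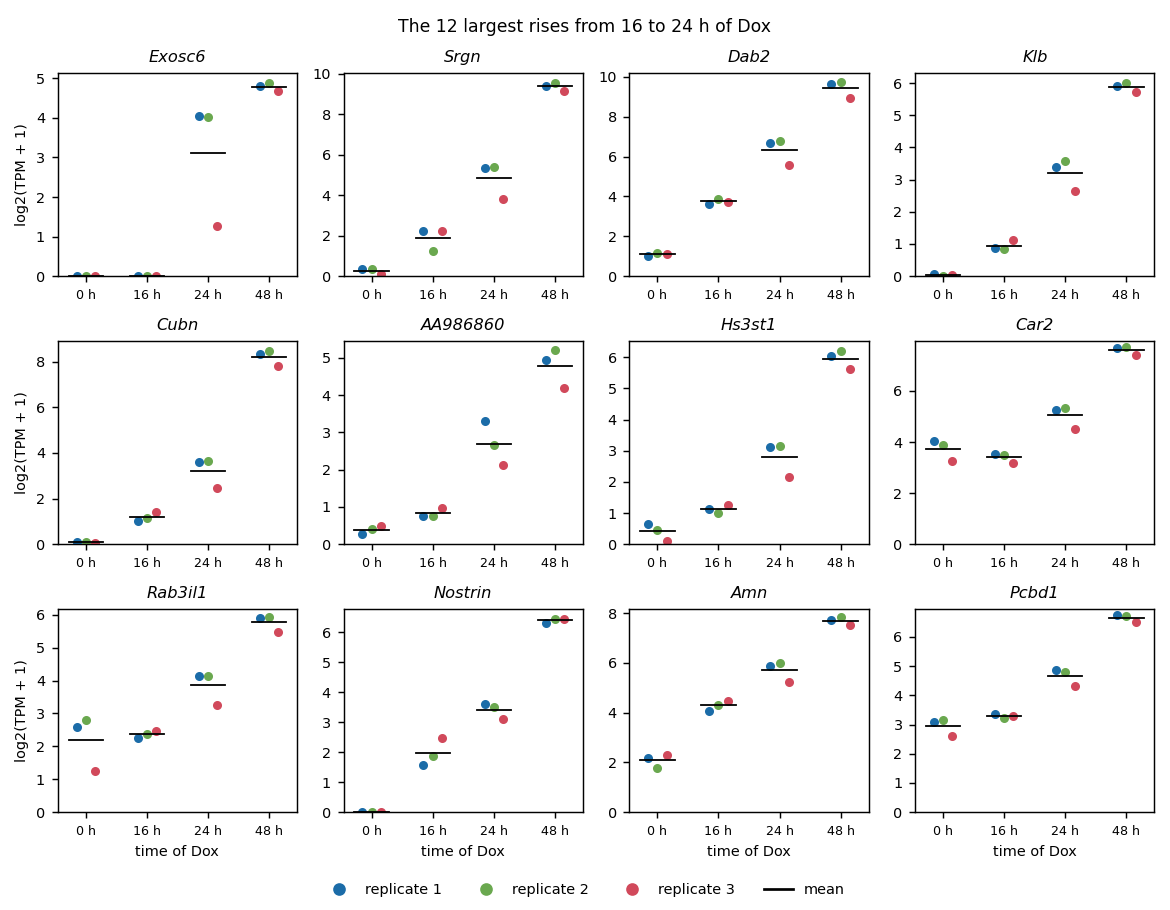
Each panel is 1 of the 12 largest called rises whose 16 or 24 h mean reached 5 TPM, with time of Dox on the horizontal axis, log2(TPM + 1) on the vertical axis, 1 point per library colored by replicate and a line at the mean. In all 12 the 24 h libraries lie above the 16 h libraries, and replicate 3 is the lowest of the 24 h points. Exosc6 is listed at 0 in every library at 0 and 16 h.

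GATA factors are named for the letters they bind, so the 250 bases before each RefSeq start (GRCm38.p6) were searched for AGATAA or TGATAA on either strand. These letters were in 7 of the 29 rises with a sequence (24.1%) and in 18.8% of all genes, so the rises stood near the share of all promoters. Among the genes higher at adjusted p alone the share was 12.7%. Of the falls with a sequence 6 of 11 held them (54.5%), namely Accsl, Apoc2, Calca, Grm6, Nphs1 and Sult6b1, and of the genes lower at adjusted p alone 15.3% did. The 7 rises were Dab2, Hnf4a, Klb, Nxf7, Pcbd1, Tfec and Ubash3b, and a gene with several matches, overlapping or not, was counted once. Dab2, a continuing rise, and Tfec, a newly moving one, are shown as examples of the 7, with the matching letters in capitals. The Dab2 window is chr15:6299539-6299788 on the plus strand, with the match starting 179 bases before the start. The Tfec window is chr6:16898442-16898691 on the minus strand, with the match 81 bases before the start.
Dab2: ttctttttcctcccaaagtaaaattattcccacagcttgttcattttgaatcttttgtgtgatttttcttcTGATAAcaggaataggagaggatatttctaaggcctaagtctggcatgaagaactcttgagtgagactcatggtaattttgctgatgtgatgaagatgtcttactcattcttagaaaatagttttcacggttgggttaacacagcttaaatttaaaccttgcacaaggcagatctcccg
Tfec: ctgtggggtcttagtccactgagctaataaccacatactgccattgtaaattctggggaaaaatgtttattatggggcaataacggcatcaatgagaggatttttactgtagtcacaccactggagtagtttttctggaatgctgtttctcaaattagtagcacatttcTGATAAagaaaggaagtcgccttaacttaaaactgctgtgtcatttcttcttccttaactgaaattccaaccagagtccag
A match of letters is a description of the window and was not tied to binding.

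Of 19 genes of the basement membrane and of the enzymes that modify collagen, 4 were called higher (P4ha2, Col4a1, P4ha1, Col4a2), against 0.261% of all genes. By adjusted p alone 12 were higher (1.91% of all genes) and 0 lower, 7 did not pass, and the median change was 0.59. Col4a1 and Col4a2 encode the chains of type IV collagen and lie head to head on chromosome 8, sharing 22 bases at their starts (Col4a1 11198423 to 11312826, Col4a2 11312805 to 11449287). Col4a1 went from 128, 110.3 and 132 TPM at 16 h to 307, 319 and 221 TPM at 24 h, with a log2 difference of 1.17 ± 0.13 (SE; adjusted p = 7.58e-05, limma). Col4a2 went from 62.5, 59.9 and 73.1 to 155, 165 and 111 TPM, with a log2 difference of 1.11 ± 0.17 (SE; adjusted p = 0.00136, limma). Both continued a rise from the first 16 h.

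P4ha1 and P4ha2, subunits of the enzyme that hydroxylates collagen prolines, had moved less before the step. P4ha1 went from 24.8, 23.1 and 23.7 to 58.6, 58 and 45.1 TPM, with a log2 difference of 1.13 ± 0.17 (SE; adjusted p = 0.00103, limma). P4ha2 went from 13.1, 14 and 17 to 38.5, 40.4 and 31.4 TPM, with a log2 difference of 1.27 ± 0.14 (SE; adjusted p = 7.58e-05, limma). The 3 chains of laminin-111 passed adjusted p below the fold minimum, Lama1 with a log2 difference of 0.89 ± 0.13 (SE; adjusted p = 0.000872, limma), Lamb1 with 0.59 ± 0.13 (adjusted p = 0.0174) and Lamc1 with 0.46 ± 0.11 (adjusted p = 0.0303). Lama1 went from 169, 179 and 217 to 385, 379.7 and 287 TPM. Sparc, a collagen-binding matrix protein (321, 304 and 351 to 663, 659.9 and 514 TPM), and Serpinh1, the collagen chaperone (519, 505 and 580.0 to 991, 1032 and 709.9 TPM), also passed adjusted p alone. Nid1, which bridges laminin and collagen, did not pass, at 73, 79.5 and 82.6 TPM and then 75, 80 and 78.6 TPM, with a log2 difference of -0.01 ± 0.13 (SE; adjusted p = 0.991, limma).

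Families of the secretory pathway were added after the calls had been seen. Over all genes, 1.91% passed adjusted p upward and 1.11% downward. Of 17 translocon and signal peptidase genes 4 passed adjusted p upward and 0 downward, with a median of 0.16. Of 37 genes of the COPI and COPII coats and the p24 cargo receptors, 6 passed upward and 0 downward, with a median of 0.19 and 34 positive differences, against 53.6% positive over all genes. Ssr3, a subunit of the translocon-associated complex, was an example at 132, 135 and 150.5 TPM and then 194, 194 and 170.2 TPM. Of 22 cholesterol synthesis genes all 22 differences were positive with a median of 0.24, but 2 passed adjusted p, among them Stard4, and replicate 3 had the highest summed level at both times.

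**Figure D4:**
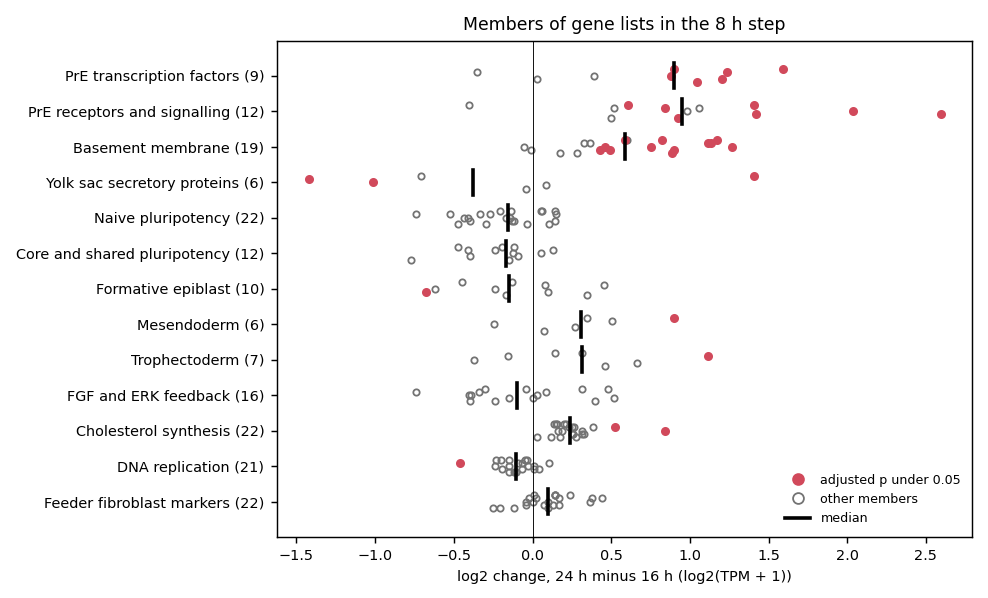
Each point is 1 member of a gene list (number tested in brackets), placed by its log2 change from 16 to 24 h on the log2(TPM + 1) scale; filled points passed a limma adjusted p of 0.05, and black bars are medians. The medians of PrE transcription factors, receptors and basement membrane genes lie at 0.90, 0.95 and 0.59, and that of naive pluripotency genes at -0.16 with no filled point.

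Srgn (chromosome 10, 62493833 to 62527451), which encodes serglycin, a proteoglycan of secretory granules, had the largest fitted rise of a gene detected at 16 h. It was at 3.69, 1.34 and 3.63 TPM at 16 h and 39.2, 40.8 and 13.2 TPM at 24 h, with a log2 difference of 2.96 ± 0.31 (SE; adjusted p = 5.2e-05, limma). Klb, the co-receptor for endocrine FGFs, went from 0.841, 0.79 and 1.19 to 9.53, 11 and 5.29 TPM, with a log2 difference of 2.26 ± 0.18 (SE; adjusted p = 1.39e-06, limma). Hs3st1, a heparan sulfate sulfotransferase, went from 1.21, 1.01 and 1.38 to 7.63, 7.97 and 3.42 TPM, with a log2 difference of 1.67 ± 0.21 (SE; adjusted p = 0.000213, limma). All had groups that did not overlap.

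Car2, a cytosolic carbonic anhydrase, had not risen before the step, at 15.6, 13.8 and 8.62 TPM before Dox and 10.7, 10.4 and 8.17 TPM at 16 h. At 24 h it was at 37.5, 39.8 and 22 TPM, with a log2 difference of 1.63 ± 0.21 (SE; adjusted p = 0.000213, limma). Pcbd1, a pterin dehydratase, was at 7.41, 7.89 and 5.06 TPM before Dox, at 9.36, 8.42 and 8.77 TPM at 16 h and at 28.4, 26.5 and 18.8 TPM at 24 h, with a log2 difference of 1.36 ± 0.15 (SE; adjusted p = 5.42e-05, limma). Rab3il1, an exchange factor for RAB GTPases, went from 3.78, 4.19 and 4.47 to 16.8, 16.7 and 8.66 TPM, with a log2 difference of 1.5 ± 0.29 (SE; adjusted p = 0.00705, limma). Without replicate 1 or 2 of the 24 h group, the call of Rab3il1 was lost, at 1.35 (limma adjusted p = 0.0543 to 0.0571).

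AA986860, a gene without an assigned role, went from 0.689, 0.699 and 0.964 to 8.81, 5.32 and 3.33 TPM, with a log2 difference of 1.86 ± 0.29 (SE; adjusted p = 0.00145, limma). Exosc6, a subunit of the RNA exosome that every cell needs, was listed at 0 in all 6 libraries at 0 and 16 h and at 15.4, 15.3 and 1.39 TPM at 24 h. It is counted among the newly moving rises because the rule calls it, but a listed 0 for such a gene can be a failed estimate, and no fold is given. Its span (chromosome 8, 111056339 to 111057664) lies inside that of Aars, on the same strand and with the same end. Aars changed by -0.31 on the log2 scale, and how reads were divided between the 2 genes was not tested. The call of Exosc6 was lost without replicate 1 or 2 of either group.

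The called falls were fewer than the rises. Calca (chromosome 7, 114631478 to 114636357), which encodes calcitonin and CGRP, was at 12.8, 13.1 and 12.8 TPM before Dox, then 7.65, 5.32 and 5.63 TPM at 16 h and 1.4, 1.61 and 1.08 TPM at 24 h. The last 2 groups did not overlap, with a log2 difference of -1.6 ± 0.18 (SE; adjusted p = 7.58e-05, limma). Halr1, a long non-coding RNA beside the Hoxa cluster, went from 39, 47.2 and 34.4 to 11, 9.62 and 19.4 TPM, with a log2 difference of -1.57 ± 0.31 (SE; adjusted p = 0.00881, limma). Without replicate 2 of the 16 h group or replicate 1 or 2 of the 24 h group, the call of Halr1 was lost, at -1.47 to -1.38 (limma adjusted p = 0.055 to 0.0691). Nphs1, the slit diaphragm protein nephrin, went from 11.4, 13.3 and 10.6 to 3.96, 3.44 and 7.29 TPM, with a log2 difference of -1.16 ± 0.23 (SE; adjusted p = 0.00793, limma). Without replicate 2 of the 16 h group or replicate 1 or 2 of the 24 h group, the call of Nphs1 was lost, at -1.08 to -0.99 (limma adjusted p = 0.0506 to 0.066).

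Accsl, an ACC synthase-like gene, continued to fall, from 23.5, 18.9 and 35.6 TPM at 0 h to 5.63, 5.81 and 5.97 at 16 h and 0.73, 0.984 and 3.32 at 24 h, with a log2 difference of -1.47 ± 0.25 (SE; adjusted p = 0.00217, limma). Morc1, a germ cell gene of transposon silencing, did so too, from 29.2, 31 and 41 TPM before Dox to 9.68, 9.55 and 9.68 TPM at 16 h and 2.88, 4.31 and 6.08 TPM at 24 h, with a log2 difference of -1.02 ± 0.20 (SE; adjusted p = 0.00793, limma). Without replicate 1 of the 24 h group, the call of Morc1 was lost, at -0.79 (limma adjusted p = 0.0645). Myo1g, an unconventional myosin, was newly moving, at 6.74, 8.89 and 9.23 and then 3.39, 2.76 and 2.83 TPM, with a log2 difference of -1.21 ± 0.20 (SE; adjusted p = 0.00228, limma). So was Ubap1l, at 18.4, 18.6 and 18.5 and then 6.22, 9.17 and 9.89 TPM, with a log2 difference of -1.07 ± 0.21 (SE; adjusted p = 0.00881, limma). Without replicate 1 of the 24 h group, the call of Ubap1l was lost, at -0.89 (limma adjusted p = 0.075). Sult6b1, a sulfotransferase, went from 11.3, 11.8 and 10.2 to 1.62, 4.91 and 7.86 TPM, with a log2 difference of -1.23 ± 0.30 (SE; adjusted p = 0.033, limma). Without replicate 1, 2 or 3 of the 16 h group or replicate 1 or 2 of the 24 h group, the call of Sult6b1 was lost, at -1.32 to -0.74 (limma adjusted p = 0.0623 to 0.169).

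Of the apolipoproteins that mature yolk sac endoderm secretes, 2 fell. Both were already present before Dox, Apoa2 at 34.7, 28.3 and 16.3 TPM and Apoc2 at 1.32, 1.42 and 3.58 TPM. Apoa2 went from 19.4, 19.9 and 21 to 6.36, 6.03 and 8.37 TPM, with a log2 difference of -1.42 ± 0.27 (SE; adjusted p = 0.00704, limma). Apoc2 went from 1.56, 1.6 and 1.15 to 0.213, 0.183 and 0.213 TPM, with a log2 difference of -1.01 ± 0.22 (SE; adjusted p = 0.0149, limma). Without replicate 1 or 2 of the 16 h group or replicate 1 or 2 of the 24 h group, the call of Apoc2 was lost, at -1.02 to -0.96 (limma adjusted p = 0.0623 to 0.0708). Of 17 genes measured in the list of yolk sac secretory proteins 6 were tested, and these were the 2 called lower, against 0.134% of all genes. Apoc2 reached 1 TPM on average only at 16 h, so its place among the 6 depended on its higher group. Apoe, Rbp4 and Trf did not pass, at 0.09, -0.04 and -0.71 (limma adjusted p = 0.954, 0.989 and 0.238). The 1 called higher, against 0.261%, was Amn, the carrier of cubilin, which was also on that list. To reach 12 falls, 2 more genes filled the list of falls at adjusted p alone, the dehydrogenase Hsd17b14 (74.2, 74.1 and 73 to 34.5, 37.6 and 40.1 TPM) and Pipox, which oxidizes pipecolic acid (9.2, 12.9 and 8.96 to 4.26, 3.99 and 6.29 TPM).

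Reversal went one way. By adjusted p alone 1190 genes (8.87%) were higher and 643 (4.79%) lower at 16 h than at 0 h. With adjusted p alone in both intervals, 21 genes turned, and all 21 fell after a rise, while 0 rose after a fall. In the step itself 1.11% of all genes were lower and 1.91% higher by adjusted p alone. Both intervals share the 16 h libraries, so error in those libraries favours a reversal. By 16 h, 11 of the 21 had risen past the fold minimum. In 20 of the 21 the 16 and 24 h libraries did not overlap, against 27.1% of all genes, but the same libraries chose the 21. The exception was Gm45886, which stood at 2.41, 0.0203 and 4.82 TPM at 16 h. Hmx3, a homeobox gene of the developing ear and nervous system, was at 0, 0 and 0.152 TPM before Dox, then 9.02, 10.3 and 10.6 TPM at 16 h and 4.92, 4.49 and 6.43 TPM at 24 h, with a log2 difference of -0.81 ± 0.17 (SE; adjusted p = 0.0102, limma). Its neighbour Hmx2 was at 2.01, 2.19 and 2.17 and then 1.18, 1.42 and 1.23 TPM, with a log2 difference of -0.46 ± 0.11 (SE; adjusted p = 0.0344, limma).

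Grm6, a glutamate receptor of retinal bipolar cells, was called under both thresholds. It was at 0.0406, 0.0914 and 0 TPM before Dox, then 5.62, 6.04 and 4.57 TPM at 16 h and 1.78, 1.59 and 2.93 TPM at 24 h, with a log2 difference of -1.06 ± 0.13 (SE; adjusted p = 0.000204, limma), and at 0.142 TPM on average at 48 h. Without replicate 2 of the 16 h group or replicate 1 or 2 of the 24 h group, the call of Grm6 was lost, at -1.0 to -0.95 (limma adjusted p = 0.0022 to 0.00268). Shkbp1, a regulator of EGF receptor signalling, was at 41.2, 42.4 and 41.7 TPM before Dox, at 154, 169 and 176 TPM at 16 h and at 119.5, 111 and 127 TPM at 24 h, with a log2 difference of -0.48 ± 0.08 (SE; adjusted p = 0.00316, limma). Tmem88, a membrane protein that restrains WNT signalling, was at 26.1, 27.9 and 25.9 and then 16.3, 16.3 and 19.4 TPM, with a log2 difference of -0.60 ± 0.16 (SE; adjusted p = 0.0464, limma). Rxrg, a retinoid receptor, was at 2.36, 2.98 and 2.24 and then 1.08, 1.44 and 0.841 TPM, with a log2 difference of -0.74 ± 0.12 (SE; adjusted p = 0.00155, limma).

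At 48 h, 4 of the 21 were still higher than at 0 h by adjusted p alone (28.7% of all genes were), 6 were lower (27.6%) and 11 did not pass. Those still higher were Hmx3, by 1.5 on the log2 scale, Shkbp1, by 0.76, Hmx2, by 0.60, and Fut2, a fucosyltransferase, by 0.44 (limma adjusted p = 2.8e-07, 2.64e-07, 0.00018 and 0.0124). Of the 11 that had risen past 1 on that scale by 16 h, 10 lay within 1 of their 0 h level at 48 h, the exception being Hmx3. Over all genes, 9.51% were called higher and 7.56% lower at 48 h than at 0 h. The comparison uses neither the 16 nor the 24 h libraries, but the 0 h libraries took part in choosing the genes. The other 2 genes that reversed past the fold minimum were Gm6142, listed at 0 in every 24 h library, and Gm45886. Genes of this class were chosen from the 0, 16 and 24 h libraries, so their values at those times are a description.

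**Figure D5:**
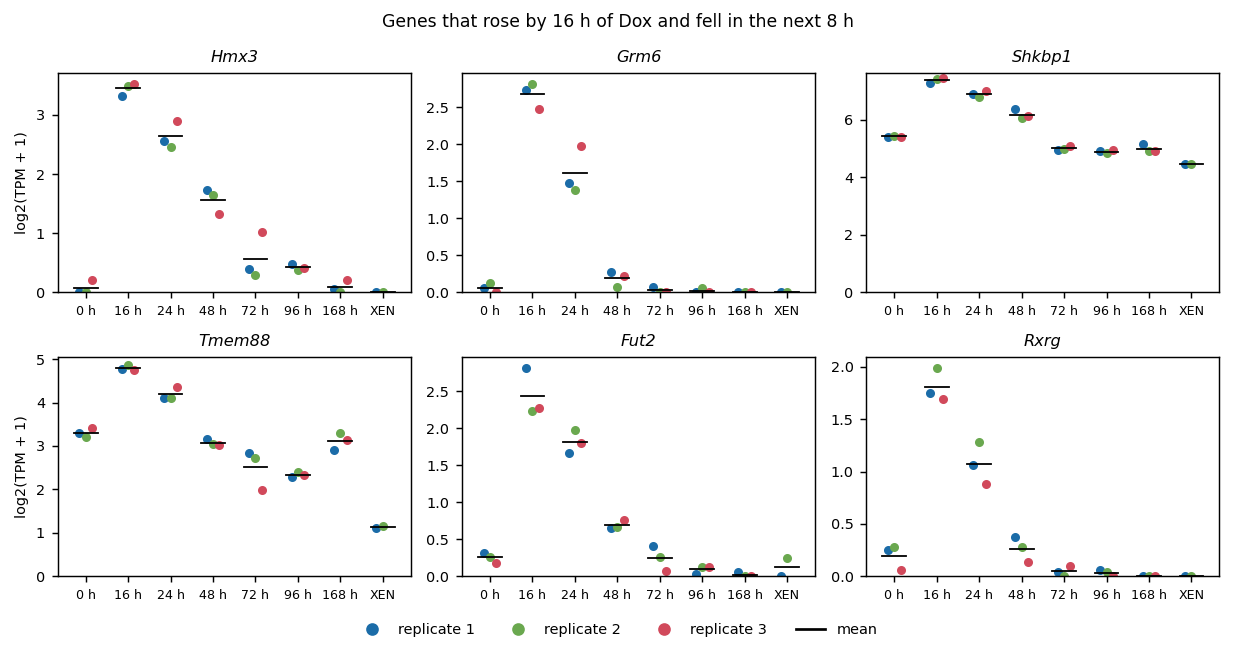
Each panel is 1 of 6 genes (Hmx3, Grm6, Shkbp1, Tmem88, Fut2 and Rxrg) that were higher at 16 h than at 0 h and lower at 24 h than at 16 h, with time of Dox and XEN cells on the horizontal axis and log2(TPM + 1) on the vertical axis, 1 point per library colored by replicate and a line at the mean. In each of these 6 panels the highest mean is at 16 h, and Grm6 is near 0 from 48 h onwards.

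Pluripotency genes did not pass the test in this step. Of 22 naive pluripotency genes, 0 passed limma adjusted p, 6 had an unadjusted p under 0.05 and 16 differences were negative, with a median of -0.16. Of 12 core and shared pluripotency genes, 0 passed, 5 had an unadjusted p under 0.05 and 10 were negative, with a median of -0.17. Over all genes, 2041 had an unadjusted p under 0.05. Nanog showed how 1 library weighed on this: it was at 96.6, 102 and 90 TPM at 16 h and at 55.2, 54.7 and 97.5 TPM at 24 h, so that replicate 3 lay within the 16 h range. The test gave a log2 difference of -0.52 ± 0.22 (SE; adjusted p = 0.234, limma), and -0.80 (limma adjusted p = 0.0324) without replicate 3. Nanog, Prdm14, Fgf4 and Zfp57 then passed among naive genes, and Foxd3 among core genes.

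Fgf4, which encodes the main FGF of epiblast cells, was at 32.2, 33.4 and 29.4 TPM and then 16.5, 16.6 and 23.1 TPM, with groups that did not overlap and a log2 difference of -0.74 ± 0.22 (SE; adjusted p = 0.0838, limma). Sox2 was at 146, 162 and 126 and then 98.1, 97.4 and 135 TPM, with a log2 difference of -0.40 ± 0.20 (SE; adjusted p = 0.36, limma). Esrrb was at 152, 159.9 and 153 and then 112, 114 and 157 TPM, with a log2 difference of -0.30 ± 0.29 (SE; adjusted p = 0.705, limma). Pou5f1, which encodes Oct4, stayed at 1382, 1370.1 and 1304 and then 1203, 1216 and 1329 TPM, with a log2 difference of -0.12 ± 0.25 (SE; adjusted p = 0.899, limma). In Sox2, Esrrb and Pou5f1 the groups overlapped.

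Zfp42 was at 133, 146 and 129.9 and then 108, 113 and 133 TPM, with a log2 difference of -0.21 ± 0.09 (SE; adjusted p = 0.242, limma). Tfcp2l1 (-0.13 ± 0.27), Klf4 (0.14 ± 0.18) and Tbx3 (0.14 ± 0.19) also did not pass (log2 difference ± SE in each case). Among formative genes, which mark the next stage of the epiblast, Grhl2 alone of 10 passed adjusted p, against 1.11% of all genes lower. It went from 14.4, 18.4 and 16.1 to 8.9, 8.61 and 12.2 TPM. Otx2 was at 1.04, 0.902 and 1.42 TPM at 24 h, with a log2 difference of -0.17 ± 0.15 (SE; adjusted p = 0.683, limma). Fgf5 was under 1 TPM on average at both times and was not tested. The keratins of simple epithelium did not pass either. Krt8 was at 24.2, 24.9 and 29.1 and then 30.2, 35.8 and 34.3 TPM, with a log2 difference of 0.35 ± 0.10 (SE; adjusted p = 0.0667, limma). Krt18 was at 13.2, 15.7 and 20.6 and then 21.8, 20.8 and 22 TPM, with a log2 difference of 0.39 ± 0.15 (SE; adjusted p = 0.215, limma).

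Other lists had few or no members past the test. Over all 13421 genes, 1.91% passed adjusted p upward and 1.11% downward, and 2041 had an unadjusted p under 0.05. Of 16 genes of FGF and ERK feedback, 22 immediate early genes, 13 of the Nodal pathway, 19 targets of p53, 11 heat shock genes, 28 of glycolysis and hypoxia and 20 of mitosis, 0 passed limma adjusted p in each list, and 9, 3, 5, 2, 2, 2 and 1 in that order had an unadjusted p under 0.05. Of 21 DNA replication genes 17 differences were negative and 1 gene passed, Pola1, a subunit of DNA polymerase alpha, which went from 32.4, 34.6 and 34.5 to 22.7, 23 and 27.5 TPM. Eomes, a T-box factor of mesendoderm and trophoblast, passed adjusted p upward, at 1.36, 1.61 and 1.29 and then 3.9, 3.77 and 2.92 TPM, while T and Mixl1 stayed under 1 TPM in all 6 libraries. Esx1, a homeobox gene of extra-embryonic tissue, was called higher, at 1.78, 2.02 and 2.52 and then 6.37, 5.45 and 5.35 TPM, with a log2 difference of 1.12 ± 0.25 (SE; adjusted p = 0.0206, limma). Without replicate 1 or 2 of the 16 h group or replicate 1 or 2 of the 24 h group, the call of Esx1 was lost, at 1.04 to 1.15 (limma adjusted p = 0.0725 to 0.101).

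At 24 h the genes that rose stood at unequal shares of their 48 h level, and the level before Dox was not subtracted. The 24 h mean was between 3.0% (Cubn) and 89.8% (Amot) of the 48 h mean, with a median of 28.3%. In 13 genes it was under 20%, and in 5 it was over 80% (Akr1c12, Amot, Bhmt, Dmkn and Ubash3b). Amot, a scaffold of the Hippo pathway, was at 2.57, 2.03 and 1.56 TPM before Dox, then 56.9, 56.4 and 66 TPM at 16 h and 132, 127 and 112 TPM at 24 h, and averaged 137 ± 6.33 TPM (SD, n = 3) at 48 h. From 24 to 48 h, 27 of the 35 were called higher again, against 3.12% of all genes. That comparison shares the 24 h libraries with the step.

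The later groups share no library with the step. All 35 rises were called higher at 48 h than at 0 h, against 9.51% of all genes. At 168 h 32 of the 35 were called higher (21.6% of all genes), the others being Bhmt, Dmkn and Esx1, and in XEN cells 29 were (18% of all genes). Bhmt, a methyltransferase of methionine metabolism, was transient: its mean was 9.08 TPM at 24 h and 10.3 TPM at 48 h, then 0.987 TPM by 96 h and 0.101 TPM by 168 h. Dmkn, which encodes dermokine, averaged 18.3 TPM at 48 h and 0.636 TPM at 168 h.

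XEN cells differed from the induced cells in parts of this group. Amn averaged 135 TPM at 168 h and 0.41 TPM in XEN cells, and Nostrin 67.8 and 0.46 TPM. Amn and Car2 were the 2 rises called lower in XEN cells than at 0 h. Of the 18 falls, 15 were called lower at 48 h (7.56% of all genes), at 168 h (17.6%) and in XEN cells (19.8%), and in each comparison the other 3 were the reversing genes Grm6, Gm6142 and Gm45886.

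Some of the genes that rose in the step were lower when Oct4 was knocked down. The siRNA table was limited to genes that the authors had called responsive to GATA6, a list chosen with the induction libraries, and held 34 of the 35 rises. Pou5f1 ran from 282 to 387 TPM with siOct4 (median 314) and from 782 to 1194 TPM with siCTL (median 895). Of the 34, 9 were called lower with siOct4 at an absolute log2 change above 0.5 (AA986860, Amn, Cubn, Foxq1, Myo5b, Nostrin, Rhpn1, Slc44a3 and Srgn), against 1.72% of the 6264 genes tested, and 0 were called higher (0 also at an unadjusted p under 0.05), against 0.942%. The median change was -0.78 for the rises and -0.12 for all genes tested, and 30 of the 34 were negative. After median-of-ratios rescaling the medians were -0.63 and 0.007, and 27 of the 34 were negative. Deviations of libraries of the same number correlated at 0.236 to 0.707 (mean 0.33), and those of other numbers at -0.556 to 0.459 (mean -0.06). In a fit blocked on the replicate number 23 of the 34 were lower, against 6.15% of all genes, and 0 higher (2.43%).

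Cubn ran from 122 to 650 TPM with siCTL (median 337) and from 18.2 to 126 TPM with siOct4 (median 56.3), with a log2 difference of -2.55 ± 0.46 (SE; adjusted p = 0.00641, limma). Nostrin ran from 78.4 to 195 TPM with siCTL (median 125) and from 14.9 to 49.3 TPM with siOct4 (median 29.4), and its groups did not overlap, with a log2 difference of -2.11 ± 0.32 (SE; adjusted p = 0.00192, limma). Srgn ran from 1115 to 1777 TPM with siCTL (median 1453) and from 367 to 740.4 TPM with siOct4 (median 623), with a log2 difference of -1.31 ± 0.19 (SE; adjusted p = 0.00169, limma). Srgn was not called after median-of-ratios rescaling of the libraries. Dab2 was called with the block and after that rescaling, and not otherwise. Its change was -0.95 in both fits, with limma adjusted p = 0.0962 without the block and 0.0114 with it.

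Other rises did not pass the test with siOct4. Col4a1 changed by -0.02 and Hs3st1 by 0.03 on the log2 scale with siOct4 (limma adjusted p = 0.984 and 0.969), and neither was called with the block. Gata6 itself ran from 92.6 to 198 TPM with siCTL (median 110.4) and from 51.2 to 130.2 TPM with siOct4 (median 88.1), with a log2 difference of -0.50 ± 0.22 (SE; adjusted p = 0.326, limma). In the blocked fit its adjusted p was 0.0503 (limma). Here too the value sums the cassette and the endogenous gene. The paper measured endogenous Gata6 by an untranslated region that the cassette lacks, and reported it reduced by Oct4 knockdown. The part of Gata6 in the differences of the other genes was not tested. Of the 18 falls, 4 were in the table and 0 were called in either direction, with or without the block (limma), or at an unadjusted p under 0.05.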

How the data were processed

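RNA-seq was made from polyA-selected, stranded libraries. The authors mapped the paired reads with STAR (mm10), estimated gene levels with RSEM, dropped outliers of a principal component analysis, and deposited TPM. Versions and gene annotation are not given in the sources used here. Depth is unknown, since TPM keeps no read numbers, so no interval that needs it is given. Groups and replicate numbers came from the titles. For the 60 symbols on more than 1 row the row of highest mean was used.

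TPM was used as log2(TPM + 1), so changes of low genes are understated. limma 3.58.1 in R 4.3.3 (lmFit, eBayes with trend and robust options) was fitted to all 23 induction libraries with 1 coefficient per group, and to the 12 siRNA libraries, with Benjamini-Hochberg adjustment. The design foresaw a count test only for counts, so none was run. A call needed an adjusted p under 0.05 and a log2 change above 1, or above 0.5 for siRNA. Continuing and reversing genes were those called by the same rule from 0 to 16 h, in the same or the opposite direction. The fits were tried on simulated data with independent noise in each library. That simulation held no deviating library and no shared deviation of same-numbered libraries. Where same-numbered libraries deviated together (siRNA correlations 0.236 to 0.707, against -0.556 to 0.459 for other numbers), the block is reported. In the induction series the correlations of the same number were 0.02 to 0.11, and of other numbers -0.08 to 0.06.

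Genes named were the 12 largest called rises and falls with groups that did not overlap and a mean of at least 5 TPM at 16 or 24 h, filled at adjusted p alone where fewer were called, up to 5 per class and direction, called members of the gene lists, and a set of PrE and pluripotency genes. Others that appear were chosen after their values were seen. Some genes that the rule names are not reported here. Members and lists were chosen with earlier results of these data known. Lists of 2-cell-like and mitochondrially encoded genes had 0 members tested. Gene spans are from GENCODE M21, promoters from RefSeq GRCm38.p6. The authors' group means and response classes in the siRNA table were not used. Alternatives were another pseudocount, filters, scaling, call rules, moderation, the 2 groups alone, the replicate block and each library left out.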

Additional observations from a re-analysis of the deposited data

Results flagged for a closer look

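In 1 of 18 groups of 6 siRNA libraries screened, over the 9 rises of the step called with siOct4, a library stood apart by Dixon's test. AA986860 was at 6.15 on the log2(TPM + 1) scale in siCTL replicate 4, and between 4.44 and 5.03 in the other 5 siCTL libraries. Chance gives about 0.9 such groups of 18.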

How the results depend on the processing

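Counts of the step rested on the call rule and on single libraries. With a pseudocount of 0.1, 55 genes were higher, 38 continued and 1 reversed. With a mean of at least 5 TPM, 11 were lower and 1 reversed. With no fold minimum, 257 were higher and 149 lower, with 169 newly moving, 216 continuing and 21 reversing, and with a minimum of 0.5, 148 and 127, with 113, 144 and 18. Leaving out each library in turn gave 23 to 67 higher, 10 to 36 lower, 18 to 54 newly moving, 14 to 46 continuing and 1 to 5 reversing. The replicate block in the induction series left the counts at 35 and 18. With siOct4, 23 rises were lower under the replicate block. The classes could not be formed with the 16 and 24 h libraries alone, which gave 30 higher and 13 lower. Among named genes only Gata6 reversed, at -0.00757 and -0.0144 without replicate 1 or 2 of the 24 h group, in a range up to 0.106 without replicate 3. The cause of these shifts was not tested beyond the construction of each alternative. Of 845 values of named genes under the alternatives, 771 kept direction and side of the threshold, 55 lost a call and 17 gained one.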
